A study of Gallus gallus with 21 samples.

Results

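The comparison described here is between chicken retinas taken after 6 days and after 1 day of wearing a lens of -10 dioptres. Libraries were assigned by the duration given in their titles, 7 to each duration, so that 14 of the 21 libraries of the series entered it. All birds were wild-type White Leghorn chickens fitted with the lens at 3 days of age. The other 7 libraries, from 3 days of lens wear, are quoted beside the groups as a reference and entered no test given here. Every group wore a lens, so no library shows an eye without one. A 6-day bird was also older than a 1-day bird, and the labels give a single age range for all, postnatal days 3 to 9. Duration of lens wear and age can therefore not be told apart.

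A negative lens moves the image plane behind the retina, and a young eye responds by growing longer until the image is in focus again, which leaves it short-sighted. The chick is a main model of this response because the growth signal arises within the retina itself, where photoreceptors, amacrine cells, dopamine and the local circadian clock have all been tied to it. In the same days after hatching, a chick retina that is dominated by cones also goes on maturing, and its photoreceptors lengthen their outer segments.

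RNA was sequenced after depletion of ribosomal RNA, and the deposited table gives 18631 genes in CPM, which scales the reads of a gene to all reads of its library. Depth was estimated at 34.0 to 49.3 M reads in the 14 libraries, and 10.6 to 15.3 M of these fell on listed genes. The listed genes took up 30.7 to 31.2% of the CPM scale in the 1-day libraries and 31.7 to 33.3% in the 6-day libraries, without overlap. Since this share moves with the groups, each change was also computed after median-of-ratios scaling, which equalises the typical gene across libraries. "On both scales" below means past the threshold, with the same sign, on CPM and after that scaling. HINTW, a gene of the female-specific W chromosome, was present in 4 of 7 libraries of day 1 and 5 of 7 of day 6, and its presence was a term of the fits. It was present in 1 of 7 libraries of day 3, and the 3-day levels quoted below are not adjusted for it. Markers of photoreceptors, bipolar, amacrine, horizontal and ganglion cells and Müller glia were all detected. In contrast, the summed level of 4 muscle genes did not exceed 0.219 CPM in a library. The labels do not state that each library of a group is a separate bird, so every p-value rests on the spread among libraries, which may be technical.

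The 1-day libraries did not form a uniform group. Their sample codes carry the numbers 1 to 4 in 4 libraries and 12 to 14 in the other 3, and the labels do not say what the numbers mean. Between these sets 1047 of 11074 genes differed, with 235 of them higher and 812 lower where the codes were 12 to 14. The sets were unlike in HINTW, which among codes 1 to 4 was absent from code 4 alone and among 12 to 14 was present in code 13 alone. This comparison was adjusted for presence of HINTW, but the means of each set quoted below are not. The 6-day libraries, split into codes 46 to 48 and 51 to 55, differed in 0 genes by limma, with 787 at an unadjusted p under 0.05. The labels do not say whether these sets correspond to those of day 1. Because the 1-day sets differed, changes are also given for 6 days against each set of the 1-day libraries alone.

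Between 1 and 6 days of lens wear 3021 of 11074 tested genes changed, or 27.3% (limma, Benjamini-Hochberg adjusted p under 0.05). Of these, 2455 were higher after 6 days (22.2%) and 566 lower (5.11%). After median-of-ratios scaling 1065 were higher (9.62%) and 1155 lower (10.4%), a near-even split that this scaling, which sets the typical gene equal across libraries, tends to give by construction. On both scales 1065 genes rose (9.62%) and 566 fell (5.11%). All 566 falls on CPM thus held after scaling, so for falls this second condition removed none. In 687 genes (6.2%) the 7 values of one day lay wholly above those of the other. Against each set of 1-day libraries alone, 729 genes were higher (6.58%) and 102 lower (0.921%) in both tests. The median log2 change over all genes tested was 0.086 on the CPM scale and 0.0090 after scaling.

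In what follows, 3 levels given together are the lowest, the median and the highest of 7 libraries in CPM. Changes are log2 differences of CPM + 1, 6 days minus 1 day, with their standard error (SE), and p is adjusted over all genes tested. Each count of members of a gene list that rose or fell is to be read beside the 22.2% of all genes that rose and the 5.11% that fell, or 9.62% and 5.11% on both scales, and a share near these says nothing about the list.

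**Figure D1:**
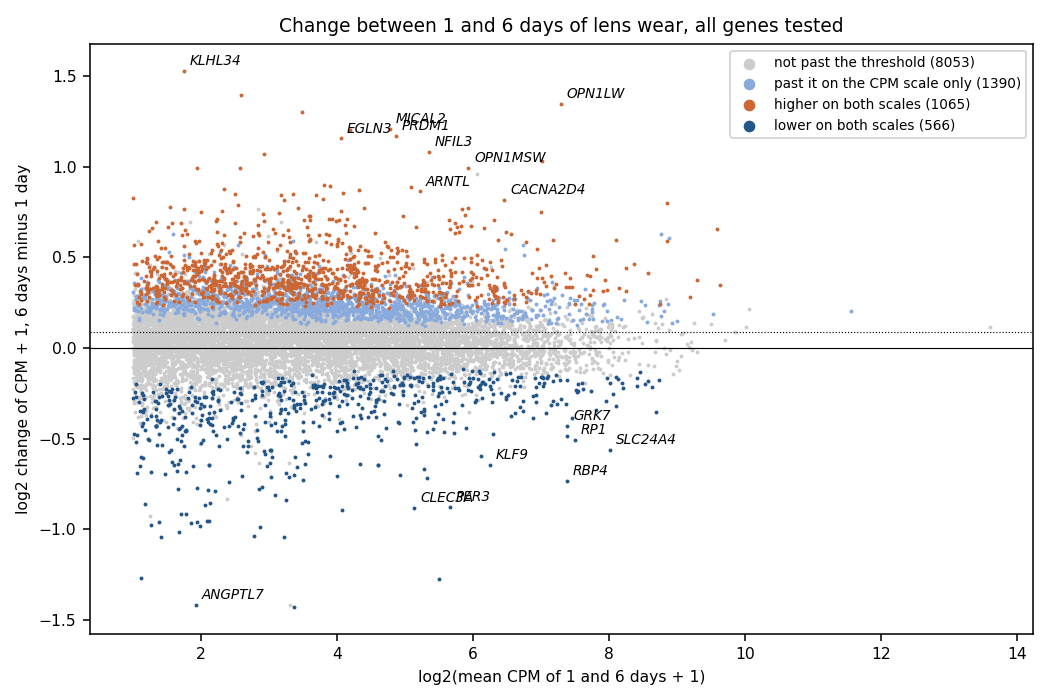
Change between 1 and 6 days (vertical axis, log2 difference of CPM + 1) against the mean level of each of the 11074 genes tested (horizontal axis, log2). Colours mark genes past the threshold on both scales (1065 higher, 566 lower), on the CPM scale only, or not at all, the dotted line is the median of all genes at 0.086, and OPN1LW, MICAL2, PRDM1 and NFIL3 are among the named points farthest up.

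The opsin genes of red and green cones rose. OPN1LW, the red-sensitive cone opsin on an unplaced scaffold, stood at 68.4, 87.8 and 109 CPM after 1 day and at 151, 209 and 357 CPM after 6 days. The groups did not overlap, and the change was 1.35 ± 0.15, 2.54-fold (adjusted p = 9.17e-05). OPN1MSW, the green-sensitive cone opsin (chromosome 26, 4556844 to 4562455 in the GRCg6a build), went from 30.5, 37.4 and 51.5 CPM to 58.9, 74.0 and 128 CPM. Its groups were also separate, with a change of 0.99 ± 0.14 (adjusted p = 0.000269) and a single 6-day library far above the rest. Each of these genes passed on both scales (9.62% of all genes higher) and against each set of 1-day libraries (6.58%). The violet opsin gene OPN1SW was near the lower limit of the test at 0.607 to 1.89 CPM and 0.783 to 2.21 CPM, its groups overlapped, and it did not pass (0.21, 95% interval -0.12 to 0.54, adjusted p = 0.325). Against the day 1 codes 12 to 14 alone it was higher (0.60, adjusted p = 0.0338), and against 1 to 4 alone it did not pass (-0.048, 0.806). The blue opsin gene OPN2SW was under the filter of a mean of 1 CPM. In such bulk RNA, more cells of a type and more RNA per cell cannot be told apart, here and for every gene below.

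Most tested genes of the signalling chain of rods rose. In phototransduction, light-activated opsin drives the G protein transducin, transducin activates a phosphodiesterase, and the fall of cyclic GMP closes a cation channel. Of 9 tested genes of the rod chain, 7 rose and 0 fell, all 7 on both scales, with a median change of 0.64 against 0.086 for all genes. CNGB1, the modulatory subunit of the rod channel (chromosome 11, 459934 to 475397), went from 9.23, 10.8 and 13.3 CPM to 15.5, 21.3 and 24.7 CPM, without overlap (0.86 ± 0.09, adjusted p = 7.79e-05). CNGA1, its pore-forming subunit, went from 8.24 to 16.5 CPM to 17.1 to 24.3 CPM, also without overlap (0.64 ± 0.12, adjusted p = 0.00227). Both subunits of this channel thus rose.

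Other steps of the rod chain rose with overlap between single libraries. The transducin gene GNAT1 went from 9.36, 11.3 and 15.9 CPM to 13.8, 20.3 and 23.2 CPM (0.71 ± 0.12, adjusted p = 0.00117). PDE6G, the inhibitory subunit of the rod phosphodiesterase, rose from a mean of 8.57 ± 2 to 17.4 ± 5.77 CPM (SD, n = 7; 0.90 ± 0.19, adjusted p = 0.00437). The ion exchanger gene SLC24A1, which extrudes calcium from the rod outer segment, rose too (0.87 ± 0.15, adjusted p = 0.000921). GNB1, a transducin beta subunit that many cells share, rose by 0.40 ± 0.07 without overlap, and GUCY2F, a retinal guanylate cyclase, by 0.40 ± 0.10. Rod arrestin, SAG, did not pass, with 189.8 to 260.3 CPM after 1 day and 218 to 295 CPM after 6 days (0.16, 95% interval -0.03 to 0.36). PDE6B, the catalytic subunit, did not pass either (-0.12, -0.32 to 0.079) and lies on chromosome Z. Against the day 1 codes 1 to 4 alone 6 of the 9 were higher (20.8% of all genes), and against 12 to 14 alone 6 (13.9%).

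Several genes of the cone chain moved the other way. Of 12 tested members 5 fell and 2 rose on both scales, 41.7% lower beside a background of 5.11%, and the median change of the 12 was -0.026. GRK7, the kinase that shuts off activated cone opsins (chromosome 9, 10421447 to 10446325), stood at 177, 187 and 215 CPM after 1 day and at 127, 143 and 162 CPM after 6 days. No 6-day library reached the 1-day range, and the change was -0.43 ± 0.06 (adjusted p = 0.000358). Part of this locus overlaps ATP1B3 on the same strand, which also fell (-0.26 ± 0.05, adjusted p = 0.00141), and the sources used here do not say how reads were divided between them. PDE6C, the catalytic subunit of the cone phosphodiesterase, fell from 212, 259 and 270.1 CPM to 168, 201 and 207 CPM, without overlap (-0.34 ± 0.07, adjusted p = 0.00366).

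CNGA3, the pore of the cone channel, went from 46.7, 57.9 and 84.2 CPM to 38.5, 43.5 and 48.8 CPM with overlap (-0.47 ± 0.12, adjusted p = 0.0122). RGS9BP, an anchor of the complex that switches transducin off, fell by a change of -0.32 ± 0.07 (adjusted p = 0.00342), and the overlapping gene NUDT19 by -0.37 ± 0.08. GUCA1C, a calcium sensor of guanylate cyclase, fell as well (-0.18 ± 0.06, adjusted p = 0.028), a call that ended without 1-day library 1 or 6 or 6-day library 5 or 6. The rises were those of the cone transducin subunits, GNAT2 (0.34 ± 0.09, adjusted p = 0.0108) and GNGT2 (0.32 ± 0.07, 0.00469). Cone arrestin, ARR3, did not pass (-0.13, 95% interval -0.37 to 0.10), although it was lower against codes 1 to 4 alone (-0.33, adjusted p = 0.0135) and had a change of the other sign against 12 to 14 (0.17, 0.207). The other members that did not pass were PDE6H, CNGB3, SLC24A2 and RGS9.

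The cone falls rested in part on which 1-day libraries were used. Against codes 1 to 4 alone 5 members were lower (8.77% of all genes), and against 12 to 14 alone 2 (1.4%). The 5 were not the same 5 that fell against all 1-day libraries. ARR3 was among them and GUCA1C, which did not pass against codes 1 to 4 alone, was not. PDE6C had changes of -0.45 (adjusted p = 0.000556) and -0.17 (0.169) in these comparisons, and CNGA3 -0.69 (0.000435) and -0.14 (0.207). RGS9BP also passed against codes 1 to 4 alone and not against 12 to 14 alone. GRK7 was the sole member that passed in both (-0.49 and -0.34). The transducin genes GNAT2 and GNGT2 did not pass against 12 to 14 alone (adjusted p = 0.0573 and 0.0621). The first set of 1-day libraries was the higher for CNGA3, with 70.1 ± 12.6 CPM (SD, n = 4) against 48.7 ± 1.89 CPM (n = 3).

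Among the other calcium sensors of guanylate cyclase, the enzyme that restores cyclic GMP after light, GUCA1B rose and GUCA1A did not pass. GUCA1B (chromosome 26, 3177857 to 3181393) went from 22.2, 27.6 and 32.0 CPM to 38.4, 43.7 and 46.5 CPM, with every 6-day library above every 1-day library (0.67 ± 0.08, adjusted p = 9.37e-05). GUCA1A, its neighbour on chromosome 26, stood at 70.5 ± 12.5 CPM after 1 day, 39.5 ± 4.87 CPM after 3 days and 66.4 ± 9.29 CPM after 6 days (SD, n = 7 each; 6 against 1 day -0.058, 95% interval -0.30 to 0.18).

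**Figure D2:**
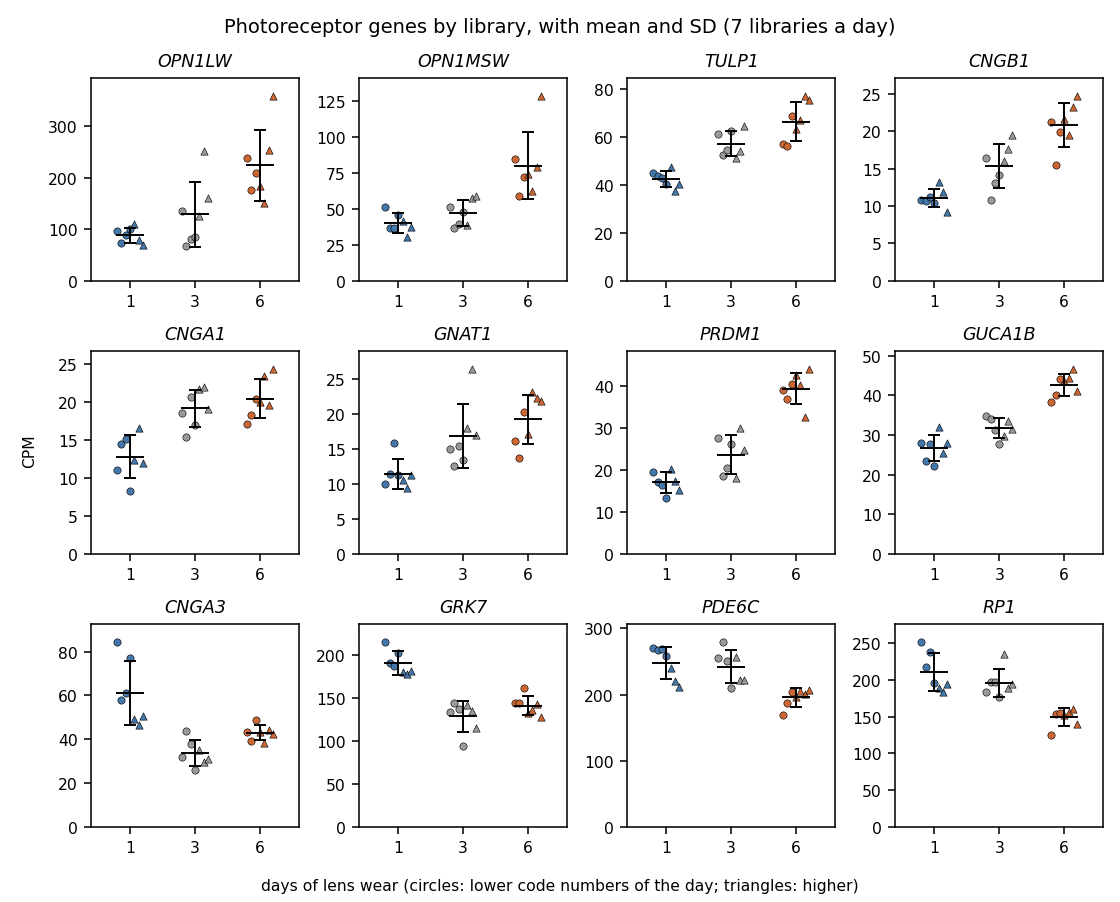
Level in CPM (vertical axes, from 0) of 12 photoreceptor genes in each library after 1, 3 and 6 days of lens wear (horizontal axes), with mean and SD of 7 libraries and circles and triangles for the lower and higher code numbers of each day. OPN1LW, OPN1MSW, TULP1, CNGB1, CNGA1, PRDM1 and GUCA1B are separate and higher after 6 days, while GRK7, PDE6C and RP1 are separate and lower.

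Genes of the outer segment, the stack of membrane discs that holds the pigment, and of its connecting cilium moved in both directions. Of 23 tested, 12 rose and 3 fell, and 7 rose on both scales. TULP1, which moves proteins into the outer segment, went from 37.7, 42.9 and 47.6 CPM to 56.3, 67.1 and 77.1 CPM (0.64 ± 0.08, adjusted p = 0.000113). MAK, a kinase that limits the length of the photoreceptor cilium, went from 64.9, 70.5 and 89.6 CPM to 102, 107 and 126 CPM (0.63 ± 0.07, adjusted p = 9.87e-05). ABCA4, the retinoid flippase of disc membranes, rose by 0.40 ± 0.06. In all 3 the groups were separate. AIPL1, a chaperone for the phosphodiesterase, rose with overlap (0.62 ± 0.12, adjusted p = 0.00188), as did ARL3, and CRB1, a polarity protein at the outer limiting membrane, rose without (0.31 ± 0.06).

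RP1, a microtubule protein of the outer segment axoneme (chromosome 2, 110575283 to 110586239), was the largest fall of this group. It stood at 184, 197 and 252 CPM after 1 day and 125, 154 and 161 CPM after 6 days, without overlap (-0.51 ± 0.08, adjusted p = 0.000466). IMPG1 and IMPG2, proteoglycans of the matrix between photoreceptors, fell by changes of -0.16 ± 0.05 and -0.20 ± 0.05 (adjusted p = 0.0374 and 0.0123). The call of IMPG1 ended without any 1 of the 1-day libraries 1, 2, 3 and 5 and the 6-day libraries 1 and 7 (adjusted p up to 0.103).

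Of 18 photoreceptor transcription factors, 7 rose and 1 fell, and 3 rose and 1 fell on both scales, beside 9.62% and 5.11% of all genes. PRDM1, which directs precursors to the photoreceptor fate (chromosome 3, 68347905 to 68446169), went from 13.3, 17.0 and 20.3 CPM to 32.6, 40.2 and 44.0 CPM. The groups were far apart, the change was 1.17 ± 0.09 (2.25-fold, adjusted p = 1.34e-05), and the 3-day libraries had an intermediate mean of 23.7 CPM. ESRRB, an orphan nuclear receptor that rods need for survival in mice, went from 1.94, 2.77 and 3.63 CPM to 3.94, 5.02 and 7.05 CPM (0.75 ± 0.11, adjusted p = 0.00042). SALL1 rose by 0.31 ± 0.06. The fall was that of THRB, the thyroid hormone receptor of red cones, from 148, 169 and 176 CPM to 126, 130.4 and 143 CPM (-0.31 ± 0.05, adjusted p = 0.0013). OTX2, NR2E3, RORB and LHX4 were among those that did not pass.

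Single genes of ion channels and exchangers also changed. CACNA2D4, an auxiliary subunit of the calcium channel at photoreceptor terminals (chromosome 1, 60966651 to 61086781), rose from 58.1, 60.9 and 75.5 CPM to 94.4, 110.1 and 128 CPM (0.82 ± 0.07, adjusted p = 2.18e-05). On the other strand of that locus ADIPOR2 rose too (0.28, adjusted p = 0.00619). KCNV2, a silent potassium channel subunit of photoreceptor inner segments, rose by 0.56 ± 0.09. SLC24A4, a potassium-dependent sodium and calcium exchanger, fell from 270.1, 301 and 391 CPM to 194, 202 and 221 CPM (-0.56 ± 0.07, adjusted p = 0.000175).

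In the circadian clock, 3 of 6 tested activators and 5 of 16 tested repressors and outputs rose, while 1 and 3 fell, beside 22.2% higher and 5.11% lower of all genes. On both scales 3 and 4 rose and 1 and 3 fell. The clock is a loop in which CLOCK or NPAS2 pairs with ARNTL (BMAL1) to activate the PER, CRY, REV-ERB and BHLHE genes, whose products then repress it. Hour of collection is not given in the labels, so a difference in hour between the groups cannot be told apart from one in duration. ARNTL (chromosome 5, 7819805 to 7864577) went from 18.8, 27 and 30.1 CPM to 44.4, 47.1 and 53 CPM, with a wide gap between the groups (0.86 ± 0.08, adjusted p = 3.78e-05). NPAS2 went from 7.42, 9.91 and 12.6 CPM to 13.9, 17.5 and 18.7 CPM (0.63 ± 0.11, adjusted p = 0.00127), and CLOCK from 82.4, 89.8 and 98.9 CPM to 110.1, 116 and 117 CPM (0.32 ± 0.05, adjusted p = 0.000761). Neither showed overlap. RORA, a nuclear receptor that activates ARNTL, fell from 242, 273 and 314 CPM to 209.6, 218 and 235 CPM (-0.29 ± 0.06, adjusted p = 0.00195), but did not pass against codes 12 to 14 alone (-0.19, 0.0592). ARNTL2 did not pass (0.19, 95% interval -0.0048 to 0.39). The 4 calls held on both scales, although this condition removed none of the falls over all genes and so adds nothing for RORA.

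Among the repressors, PER3 (chromosome 21, 291189 to 310410) showed the largest fall, from 46.2, 70.5 and 92.3 CPM to 31.1, 33.0 and 38.7 CPM, without overlap (-0.88 ± 0.14, adjusted p = 0.00068). NR1D2, which encodes the repressor REV-ERB beta, fell from 106, 119 and 135 CPM to 86.5, 93.2 and 97.6 CPM (-0.35 ± 0.06, adjusted p = 0.0013). BHLHE41, a repressor that binds the same promoter element as CLOCK and ARNTL, fell by a change of -0.51 ± 0.10 (0.0031). These 3 targets of CLOCK and ARNTL fell while ARNTL itself rose. Other genes of these families did not follow, since CRY1 and the gene listed as NR1D1_1 rose, and PER2, CRY2 and BHLHE40 did not pass.

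NFIL3, a repressor of genes with D-box elements (chromosome Z, 44356108 to 44370014), went from 19.8, 27.1 and 29.2 CPM to 45.9, 52.1 and 68.8 CPM, 2.12-fold (1.08 ± 0.10, adjusted p = 3.14e-05). Its mean after 3 days, not adjusted for HINTW, was 50.3 CPM. CRY1, which represses CLOCK and ARNTL, went from 27.6, 35.4 and 40.8 CPM to 41.4, 47.5 and 48 CPM (0.41 ± 0.07, adjusted p = 0.00112). FBXL21, part of a ligase that acts on CRY proteins, rose by 0.44 ± 0.07. All 3 rises came without overlap. CRY4 rose by 0.47 ± 0.12 with overlap, and TIMELESS rose on the CPM scale only (0.42 ± 0.12, adjusted p = 0.0204; after scaling 0.34, 0.0633), a call that ended without 1-day library 2 or 6-day library 7.

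PER2, CRY2 and the D-box activators TEF and HLF did not pass. PER2 had a change of -0.022 (95% interval -0.19 to 0.15), with 182 ± 25.4 CPM after 1 day, 127 ± 11.1 CPM after 3 days and 176 ± 13.3 CPM after 6 days. Against each set of 1-day libraries alone ARNTL (0.88 and 0.89), NFIL3 (1.17 and 1.00) and PER3 (-1.15 and -0.50) all passed. Within day 1, PER3 averaged 77.5 ± 10.1 CPM with the lower codes (SD, n = 4) and 47.8 ± 2.25 CPM with the higher codes (n = 3), and the change against the latter was the smaller.

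**Figure D3:**
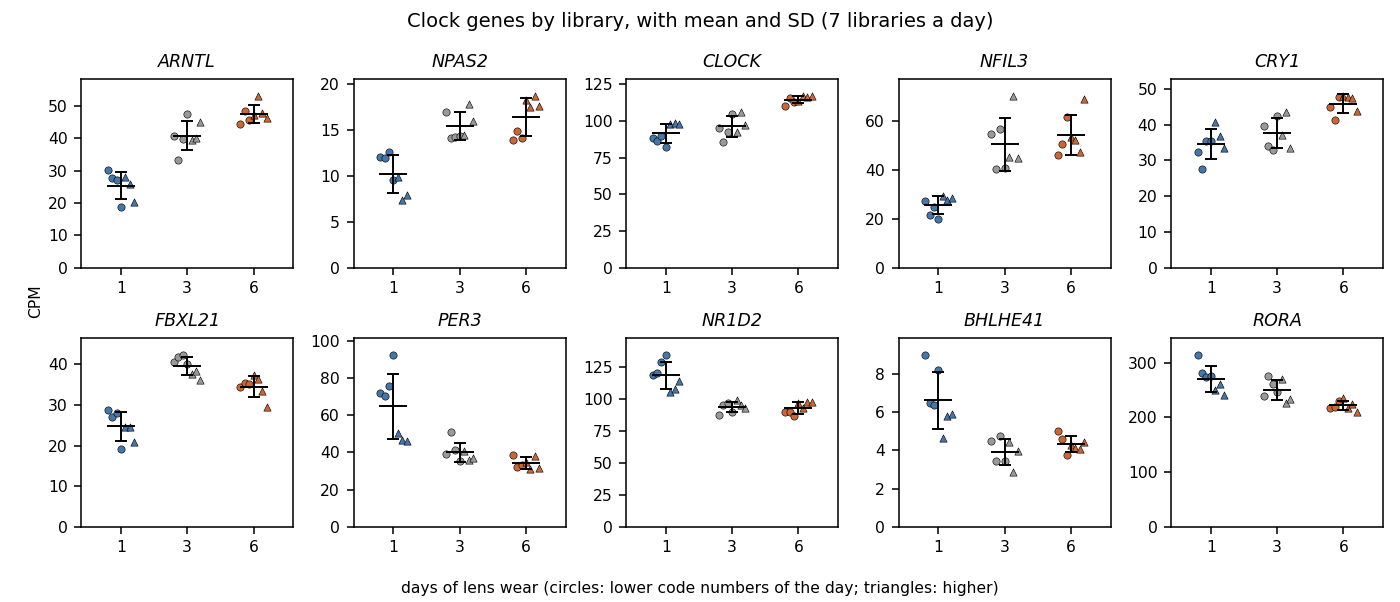
Level in CPM (vertical axes, from 0) of 10 clock genes in each library after 1, 3 and 6 days of lens wear (horizontal axes), with mean and SD of 7 libraries and circles and triangles for the lower and higher code numbers. ARNTL, NPAS2, CLOCK, NFIL3, CRY1 and FBXL21 are higher and separate after 6 days, PER3, NR1D2 and RORA lower and separate, and the triangles of PER3 on day 1 lie below its circles.

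Melatonin and serotonin genes, which the clock controls in photoreceptors, included 3 that rose and 1 that fell of 13 tested, shares near the 22.2% and 5.11% of all genes. TPH1, which starts serotonin synthesis, went from 9.31, 9.81 and 14 CPM to 13.4, 16.8 and 21.6 CPM (0.71 ± 0.09, adjusted p = 0.000142). The highest 1-day library lay within the 6-day range. ASMT, which completes melatonin synthesis, rose on the CPM scale only (0.27 ± 0.08, 0.0188; after scaling 0.18, 0.119), and not without 6-day library 3. The melatonin receptor gene MTNR1A fell (-0.43 ± 0.13, 0.0286), a call that ended without 1-day library 1 or 2 or 6-day library 3 or 7.

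Signals that have been linked to eye growth included members that fell and members that rose. EGR1 (chromosome 13, 18949952 to 18952755), the chicken ZENK, an immediate early gene of amacrine cells whose response tracks the sign of defocus, went from 6.81, 9.87 and 15.1 CPM to 2.55, 5.54 and 7.05 CPM. The ranges overlapped at their ends, and the change was -0.81 ± 0.18 (adjusted p = 0.00579). Against the 1-day codes 1 to 4 and 12 to 14 alone it was -0.87 (0.0155) and -0.79 (0.0602). EGR1 was the sole member past the threshold of 11 tested immediate early genes. In the libraries with HINTW alone 0 of these genes passed. Its locus overlaps LOC107049815 on the same strand, with means of 7.98 CPM after 1 day and 6.83 CPM after 6 days. That gene did not pass (-0.17, adjusted p = 0.152), and the sources used here do not say how reads were divided between them. RBP4, the plasma retinol carrier (chromosome Z, 53612243 to 53617574), fell from 144, 219.9 and 268 CPM to 95.7, 128 and 156 CPM with overlap (-0.73 ± 0.13, adjusted p = 0.00103). The 3-day mean of RBP4, not adjusted for HINTW, was 73.0 CPM. BCO1, which cleaves carotene to retinal, fell (-1.02 ± 0.29, 0.0179), and BCO2, which cleaves other carotenoids, rose (0.45 ± 0.06, 0.000298). BCO1 passed against the lower 1-day codes (-1.59, adjusted p = 9.20e-05) and not against the higher (-0.12, 0.694). Of 16 visual cycle genes 1 rose and 3 fell, beside 22.2% and 5.11% of all genes.

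Retinoic acid, made in the eye wall, is a further candidate signal of eye growth. CYP1B1, which can make it from retinol, rose by 0.45 ± 0.06 (0.000229), and RARB, a retinoic acid receptor, by 0.36 ± 0.06 (0.0015). Of 10 such genes 3 rose and 0 fell, beside 22.2% and 5.11% of all genes, and 2 rose on both scales (9.62%). The median change of the 10 was 0.038, against 0.086 for all genes. In the dopamine list the receptor gene DRD5 fell (-0.24 ± 0.08, 0.0298, not called without 1-day library 2 or 3 or 6-day library 2 or 7), and PTS, which makes a cofactor of dopamine synthesis, rose (0.41 ± 0.07, 0.0013). The other 8 of its 10 tested members did not pass, and the gene for the dopamine-synthesising enzyme, TH, was under the filter, as was VIP. CHAT, which makes acetylcholine in starburst amacrine cells, rose from 3.05 to 5.42 CPM to 4.71 to 7.56 CPM (0.39 ± 0.06, 0.000561). This call ended in a fit without the HINTW term (0.33, adjusted p = 0.0573), and CHAT was the sole rise among 9 tested acetylcholine genes, of which 0 fell. After scaling 1 of the 9 was higher and 2 lower.

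Growth factor pathways were counted against the same background. Of 28 BMP and TGF-beta genes 7 rose and 0 fell, and 3 rose on both scales, shares of rises near the 22.2% and 9.62% of all genes. Among them was the activin receptor gene ACVR2A (0.31 ± 0.05, adjusted p = 0.000754). Of 21 WNT genes 4 rose and 2 fell, beside 22.2% and 5.11% of all genes. The falls were those of DACT1 (-0.60 ± 0.16) and WIF1 (-0.37 ± 0.13), both modulators of WNT signalling. The call of WIF1 ended without any 1 of the 1-day libraries 2, 3, 4 and 6 and the 6-day libraries 2, 3 and 5 (adjusted p up to 0.0861). DACT1 did not pass against the higher 1-day codes (-0.12, adjusted p = 0.536). Of 30 insulin, IGF and FGF genes 4 rose and 2 fell on the CPM scale, and after scaling 1 was higher and 7 lower, beside 9.62% and 10.4% of all genes. IRS2, an adaptor of the insulin receptor, fell from 33.9, 48.1 and 53.5 CPM to 29.2, 32.3 and 40.0 CPM (-0.46 ± 0.10, 0.00516) and IGF2 by a change of -0.35 ± 0.11 (0.0261). Neither passed against the higher 1-day codes alone (-0.20 and -0.19), and IGF2 not without 1-day library 1 or 2.

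KLF9, a transcription factor induced by thyroid hormone and glucocorticoids (chromosome Z, 35029425 to 35045192), fell from 81.5, 93.6 and 103 CPM to 48.7, 57.2 and 71.6 CPM, without overlap (-0.65 ± 0.07, adjusted p = 9.65e-05). It passed against each set of 1-day libraries (-0.72 and -0.51). CRYM, which binds thyroid hormone in the cytosol, fell as well (-0.44 ± 0.13, 0.0213, not called without 1-day library 2 or 6-day library 3), beside the fall of THRB and a rise of THRA (0.32 ± 0.07, 0.00612). Of 16 genes of this group 2 rose and 3 fell, beside 22.2% and 5.11% of all genes.

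Chaperones, which fold proteins and rise in stressed cells, often rose, by a number that turned on the 1-day libraries used. Of 38 cytosolic and mitochondrial chaperone genes 19 rose and 3 fell, and 7 rose and 3 fell on both scales. HSPA8, the constitutive heat shock protein 70, stood at 151, 334 and 563 CPM after 1 day and 396, 508 and 569 CPM after 6 days (0.63 ± 0.22, adjusted p = 0.048; after scaling 0.113). This call ended without any 1 of 10 libraries, the 1-day libraries 1 to 4 and the 6-day libraries 1 to 6. Its 1-day libraries averaged 251 ± 77.5 CPM with the lower codes (SD, n = 4) and 523 ± 39.8 CPM with the higher codes (n = 3), and the 6-day libraries were higher than the first alone (1.04, 0.000989, against -0.063, 0.724). The call of HSP90AA1 ended likewise without any 1 of 9 libraries, the 1-day libraries 1 to 4 and the 6-day libraries 1 to 5. Its changes against the 2 sets were similar to those of HSPA8 (1.03, 0.000284, and -0.068, 0.774), and RSRP1, a splicing-related gene, had 1.60 (2.90e-05) and 0.16 (0.503). Over the list 27 members were higher against the lower codes (20.8% of all genes) and 3 against the higher codes (13.9%).

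These 3 chaperones passed against both sets. BAG3, a cochaperone that hands clients to autophagy, went from 3.66, 5.42 and 7.84 CPM to 9.61, 10.2 and 11.6 CPM (0.84 ± 0.10, adjusted p = 0.000104; 0.82 and 0.82 against the lower and higher codes). CCT5, a subunit of the cytosolic chaperonin that folds actin and tubulin, went from 18.7, 22.3 and 27.1 CPM to 33.5, 39.1 and 40.5 CPM (0.73 ± 0.07, 3.78e-05; 0.82 and 0.59). PTGES3, the HSP90 cochaperone p23, went from 7.97, 8.74 and 10.1 CPM to 10.5, 13.5 and 15.7 CPM (0.60 ± 0.07, 8.58e-05). In all 3 the groups were separate.

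In the endoplasmic reticulum, where membrane and secreted proteins such as opsins are folded, 13 of 28 genes rose and 0 fell, 8 on both scales. CALR, the calcium-binding chaperone calreticulin, went from 32.1, 41.1 and 58.7 CPM to 64.2, 69.7 and 85.3 CPM, without overlap (0.74 ± 0.10, adjusted p = 0.000269). HYOU1, a chaperone related to heat shock protein 70, went from 30.4, 33.6 and 40.4 CPM to 46.5, 49.3 and 52.2 CPM (0.49 ± 0.07, 0.000214), and HSPA5, the chaperone BiP, from 30.3, 39.9 and 56.4 CPM to 55.6, 63.5 and 71.5 CPM (0.67 ± 0.12, 0.00116). The groups of HYOU1 were separate and those of HSPA5 overlapped at their ends. PDIA6 and P4HB, which form disulfide bonds, rose by 0.47 ± 0.07 and 0.40 ± 0.06. Against the higher 1-day codes alone CALR (0.43, 0.00896), HYOU1 (0.32, 0.0116), HSPA5 (0.32, 0.0449) and PDIA6 (0.30, 0.0271) still passed, with smaller changes. SERPINH1, a chaperone of collagen, went from 0.482 to 2.5 CPM to 2.3 to 3.58 CPM (0.77 ± 0.16, 0.00351). Proteasome genes rose in 15 of 37 cases and fell in 0, and 6 rose on both scales (22.2% and 9.62% of all genes), with PSMD1 (0.32 ± 0.06) and PSMB3 (0.46 ± 0.09) among them.

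**Figure D4:**
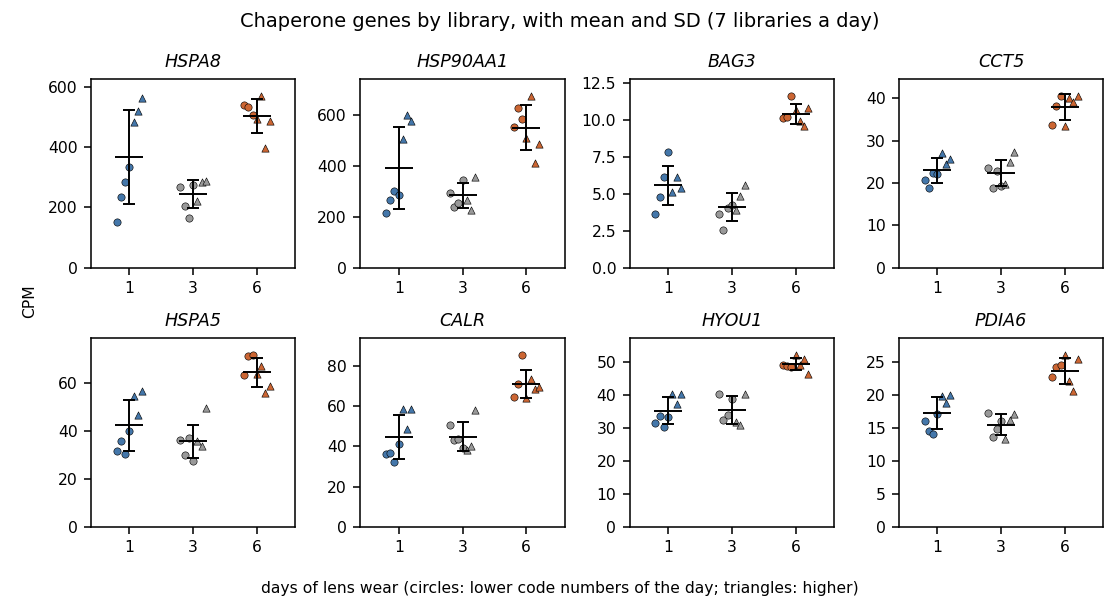
Level in CPM (vertical axes, from 0) of 8 chaperone genes in each library after 1, 3 and 6 days of lens wear (horizontal axes), with mean and SD of 7 libraries. On day 1 the triangles (codes 12 to 14) of HSPA8 and HSP90AA1 lie within the range of day 6 and the circles (codes 1 to 4) below it, whereas for BAG3 and CCT5 all libraries of day 1 lie below day 6.

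Genes of protein synthesis gave the largest number of rises among the lists. Of the 71 tested ribosomal protein genes of the cytosol, 48 rose and 0 fell (67.6%, beside 22.2% of all genes), and 28 rose on both scales. Their median change was 0.30 on the CPM scale and 0.22 after scaling. RPL13 went from 34.4, 36.4 and 41.6 CPM to 49.3, 55.9 and 57.0 CPM (0.51 ± 0.05, adjusted p = 6.46e-05), and RPLP0, of the ribosomal stalk, from 29.7, 32.1 and 37.0 CPM to 42.2, 46.1 and 48.6 CPM (0.46 ± 0.06, 0.000129). Both were separate between the days. RPS19, on an unplaced scaffold, had the largest change of the list (1.20 ± 0.20, 0.000776), and 0.80 against the higher 1-day codes alone (0.0523). Against the lower 1-day codes 51 members were higher (20.8% of all genes), and against the higher codes 15 (13.9%). The sources used here do not say how reads that match several loci were counted.

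Of 65 mitochondrial ribosomal protein genes 23 rose and 0 fell, 13 on both scales, among them MRPS34 (0.50 ± 0.06, adjusted p = 9.99e-05). Of 84 translation factors and tRNA synthetases 36 rose and 1 fell, 11 and 1 on both scales. RARS, the arginyl-tRNA synthetase, went from 13.4, 14.9 and 16.2 CPM to 18.4, 20.3 and 21.8 CPM (0.44 ± 0.05, 0.000135). The fall was EEF2K, the kinase that slows translation elongation (-0.30 ± 0.09, 0.0251), which did not pass against the higher 1-day codes (-0.027, 0.816) or without 1-day library 1, 2 or 3.

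Splicing regulators rose in 32 of 88 cases and fell in 2, beside 22.2% and 5.11% of all genes, and 17 rose and 2 fell on both scales. HNRNPH3 went from 36.5, 42.0 and 54.1 CPM to 60.6, 73.1 and 75.0 CPM (0.77 ± 0.07, adjusted p = 3.63e-05) and CIRBP, a cold-inducible RNA-binding protein whose RNA follows body temperature rhythms in mice, from 97.8, 117 and 125 CPM to 155, 176 and 181 CPM (0.59 ± 0.06, 6.03e-05). Neither showed overlap, and both passed against each set of 1-day libraries. NOVA1 and CELF1, neuronal splicing factors, fell by -0.19 ± 0.05 and -0.21 ± 0.06. Neither passed against the higher 1-day codes alone (-0.17, adjusted p = 0.0786, and -0.07, 0.452), and CELF1 did not pass in a fit without the HINTW term (-0.19, 0.0597). CELF1 overlaps RAPSN on the same strand, which also fell (-0.71 ± 0.14).

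**Figure D5:**
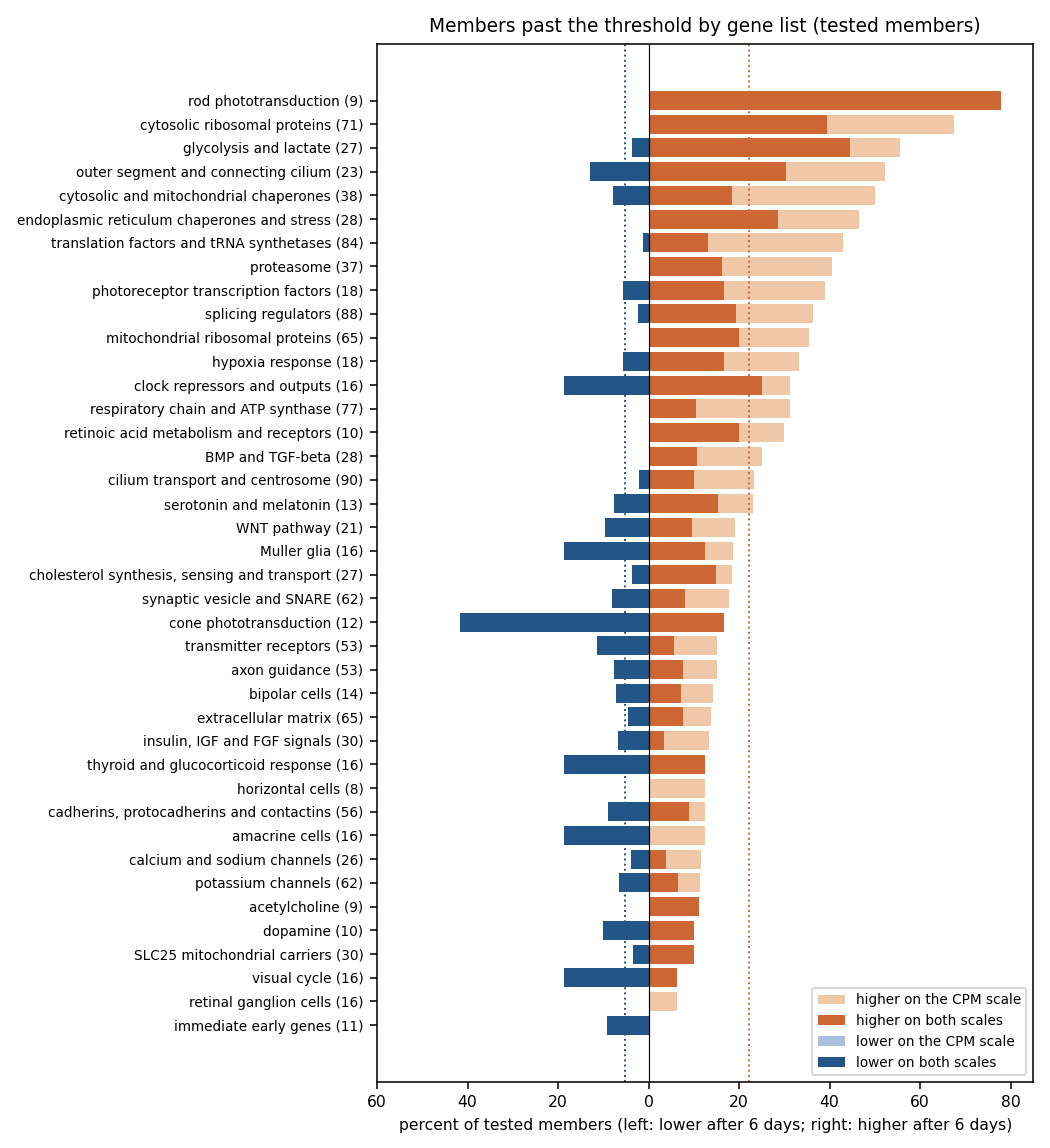
Percent of tested members past the threshold in each gene list with at least 8 tested members (horizontal axis, right for higher and left for lower after 6 days; tested members in brackets), with dark bars for both scales and dotted lines at the 22.2% higher and 5.11% lower of all genes. Rod phototransduction, cytosolic ribosomal proteins and glycolysis reach farthest to the right, and cone phototransduction farthest to the left.

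Glycolysis, on which photoreceptors depend even in oxygen, rose in many steps. Of 27 genes 15 rose and 1 fell, 12 and 1 on both scales, with a median change of 0.28. HK1, the first enzyme of the pathway, went from 99.0, 105 and 115 CPM to 132, 143 and 160.0 CPM, without overlap (0.44 ± 0.05, adjusted p = 0.00011). ALDOC, an aldolase of neural tissue, went from 171, 216 and 308 CPM to 288, 337 and 359 CPM (0.60 ± 0.09, 0.000416), and the enolase gene ENO2 from 215, 268 and 297 CPM to 303, 351 and 388 CPM (0.44 ± 0.08, 0.00207). The days were separate for ENO2 and overlapped for ALDOC. PFKFB3, which makes an activator of phosphofructokinase, rose by 0.44 ± 0.08, PGK1 by 0.30 ± 0.05 and the glucose transporter gene listed as SLC2A14, in the list under SLC2A3, by 0.37 ± 0.07.

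The lactate dehydrogenase subunits went in opposite directions. LDHA, which favours lactate formation, rose from 653, 685 and 738 CPM to 728, 853 and 1059 CPM (0.35 ± 0.08, 0.00511), and LDHB, which favours its use, fell from 139, 153 and 185 CPM to 105, 131 and 142 CPM (-0.31 ± 0.09, 0.016). For neither were the groups separate. GAPDH, PFKM, PDK1 and PDK3 did not pass. Against the lower 1-day codes 10 genes of the pathway were higher (20.8% of all genes) and against the higher codes 13 (13.9%). These rises, unlike those of the chaperones, were thus not fewer against the higher codes.

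Hypoxia genes rose in 6 of 18 cases and fell in 1, with 3 rises on both scales (9.62% of all genes). After scaling 3 were higher and 3 lower, beside 9.62% and 10.4% of all genes, and 1 was higher against each set of 1-day libraries (6.58%). EGLN3, an oxygen-sensing prolyl hydroxylase, went from 5.33, 9.2 and 12.3 CPM to 12.1, 19.0 and 40.5 CPM (1.16 ± 0.24, adjusted p = 0.0039), but did not pass against the higher 1-day codes (0.68, 0.108). PPP1R3C, a glycogen-targeting subunit of a phosphatase, went from 3.17, 5.82 and 6.86 CPM to 9.46, 11.1 and 12.5 CPM, without overlap (0.82 ± 0.11, 0.000162), and passed against both (0.85 and 0.84). P4HA1, a collagen prolyl hydroxylase, rose by 0.50 ± 0.10. Respiratory chain and ATP synthase genes rose in 24 of 77 cases and fell in 0, beside 22.2% and 5.11% of all genes, and 8 rose on both scales (9.62%). Against the higher 1-day codes alone 6 of the 77 were higher, beside 13.9% of all genes. ATP5O and SDHA rose by 0.39 ± 0.07 and 0.28 ± 0.06. SLC25A4 and SLC25A5 encode carriers that exchange ADP and ATP across the inner mitochondrial membrane. The first fell (-0.86 ± 0.17, 0.00276) and the second rose (0.46 ± 0.10, 0.00437). Sterol genes rose in 5 of 27 cases and fell in 1, shares near the 22.2% and 5.11% of all genes. The fall was ABCA1, which exports cholesterol (-0.52 ± 0.14, 0.0151), and it did not pass against the higher 1-day codes (-0.079, 0.535). FDFT1, squalene synthase, rose from 18.7, 20.5 and 25.6 CPM to 26, 29.9 and 32.4 CPM (0.42 ± 0.07, 0.00104).

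Genes of the membrane and synapse moved in both directions. Of 62 potassium channel genes 7 rose and 4 fell, of 53 transmitter receptor genes 8 and 6, and of 62 genes of synaptic vesicles and SNARE proteins 11 and 5, beside 22.2% and 5.11% of all genes. After scaling the potassium channel list had 4 higher and 7 lower, the receptor list 3 and 8 and the synaptic list 5 and 12, beside 9.62% and 10.4%. The balance of rises and falls in these lists thus turned with the scale, as it did for all genes. SLC32A1, which loads GABA and glycine into vesicles, fell from 11.9, 13.1 and 16.8 CPM to 10.4, 11.3 and 12.7 CPM (-0.31 ± 0.08, 0.0127). It did not pass against the higher 1-day codes alone (-0.15, 0.195). KCNK9, a background potassium channel, fell by -0.45 ± 0.10 and passed against both sets. STXBP4, a syntaxin-binding protein, rose from 60.9, 67.5 and 79.6 CPM to 98.5, 103 and 122 CPM (0.64 ± 0.07, 6.46e-05).

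Adhesion, guidance and matrix genes also changed balance with the scale. After scaling 5 of 56 cadherins, protocadherins and contactins were higher and 10 lower, 4 and 9 of 53 axon guidance genes, and 5 and 10 of 65 matrix genes, beside 9.62% and 10.4% of all genes. On the CPM scale, of the 56 cadherins, protocadherins and contactins 7 rose and 5 fell. SDK2, an adhesion protein that pairs synaptic partners in the retina, rose by 0.73 ± 0.14 (0.00208), and CNTNAP2, a neurexin-like protein, fell from 99.4, 111 and 121 CPM to 79.0, 84.4 and 92.1 CPM (-0.36 ± 0.05, 0.000459). Of the 53 axon guidance genes 8 rose and 4 fell, and PLXNB2, a semaphorin receptor, rose by 0.40 ± 0.05 (0.000149). Of the 65 matrix genes 9 rose and 3 fell, beside 22.2% and 5.11% of all genes. SPARCL1, a matrix protein of glia that promotes synapses, went from 15.0, 24.4 and 30.3 CPM to 28.0, 43.4 and 49.2 CPM (0.89 ± 0.16, 0.00127). CLEC3A, a lectin first known from cartilage, fell from 31.1, 43.8 and 56.1 CPM to 18.6, 23.6 and 32.6 CPM (-0.88 ± 0.12, 0.000214), and COL9A3 by a change of -0.65 ± 0.11 (0.000921). Of 90 genes of ciliary transport and the centrosome 21 rose and 2 fell, a share of rises near the 22.2% of all genes, and after scaling 9 were higher and 6 lower (9.62% and 10.4%). CEP164, a distal appendage protein of the centriole, went from 165, 199 and 215 CPM to 114, 137 and 168 CPM (-0.49 ± 0.07, 0.000444).

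Among the genes of largest change that no list held, MICAL2, an actin-oxidising enzyme (chromosome 5, 8239155 to 8361101), went from 10.9, 14.6 and 23.5 CPM to 26, 37.9 and 44.7 CPM (1.21 ± 0.16, 0.000188), CD82, a tetraspanin, from 8.65, 9.61 and 10.3 CPM to 15.0, 19.2 and 22.8 CPM (0.90 ± 0.09, 6.53e-05) and CPXM2 from 9.77, 14.8 and 18.7 CPM to 20.6, 24.1 and 33.0 CPM (0.77 ± 0.15, 0.00189). A gene listed as a ribosomal RNA, EYY68_mgr01, was not assigned to a chromosome here. It stood at 289.6 to 402 CPM after 1 day and 458 to 717 CPM after 6 days (0.80 ± 0.10, 0.00015), in libraries depleted of ribosomal RNA. On the side of the falls stood RAB21, a small GTPase of endosomes (-0.47 ± 0.07, 0.000594), BCL7A, a subunit of a chromatin-remodelling complex (-0.47 ± 0.08, 0.0015), and the thymine DNA glycosylase gene TDG (-0.45 ± 0.06, 0.000214). PRMT8, an arginine methyltransferase of neurons, fell by -0.43 ± 0.05 and CHN2, a regulator of Rac, by -0.45 ± 0.06. All of these genes were separate between the days, as the rule that chose genes by largest change required, so their separation is not a further result.

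Markers of retinal cell classes other than photoreceptors were counted next. Of 16 amacrine markers 2 rose and 3 fell, of 14 bipolar markers 2 and 1, of 8 horizontal markers 1 and 0, and of 16 ganglion cell markers 1 and 0, beside 22.2% and 5.11% of all genes. After scaling 0 amacrine markers were higher and 7 lower, 1 and 4 bipolar markers, and none of the horizontal and ganglion cell markers passed, beside 9.62% and 10.4%. Against the 1-day codes 1 to 4 alone 5 amacrine markers were lower (8.77% of all genes), and against 12 to 14 alone 0 (1.4%). The summed level of the 17 amacrine genes in the table was 1042 to 1307 CPM after 1 day and 1049 to 1120 CPM after 6 days, and that of 16 bipolar genes 805 to 872 and 794 to 894 CPM. These ranges overlap in both cases. Of 16 Müller glia markers 3 rose and 3 fell, beside 22.2% and 5.11% of all genes. GFAP, the filament protein of reactive glia, went from 1.36, 2.74 and 3.71 CPM to 3.65, 4.91 and 8.02 CPM (0.88 ± 0.13, adjusted p = 0.000502), with ranges that overlapped at their ends, while VIM fell (-0.21 ± 0.06, 0.0236, not called without 6-day library 3).

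Markers of cells other than retinal neurons and Müller glia gave few calls. None of the 3 tested markers of pigment epithelium, 3 of endothelium, 3 of oligodendrocytes, 4 of lens and 2 of cartilage and sclera passed. At an unadjusted p under 0.05 stood 1, 1, 0, 1 and 0 of them. The summed level of 10 pigment epithelium genes was 42.1 to 57.8 CPM after 1 day and 44.8 to 58.6 CPM after 6 days. Of 4 microglial and immune genes CD74, an antigen-presentation protein, rose (0.40 ± 0.11, 0.0138). The summed level of the 11 genes of that list was 8.65 to 12.3 and 9.37 to 13.3 CPM.

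Whether the change over days differed between libraries with and without HINTW was tested as an interaction. Limma called 0 of 11074 genes (0.0%), with 387 at an unadjusted p under 0.05. Within the 9 libraries with HINTW alone, 1236 genes were higher (11.2%) and 331 lower (2.99%). Within the 5 without, 1 was higher and 0 lower, with 3 residual degrees of freedom. In the libraries with HINTW alone OPN1LW (1.22, 0.00235), PRDM1 (1.08, 0.000315), ARNTL (0.78, 0.000717) and PER3 (-0.88, 0.00365) passed in the same direction as over all 14. Presence of HINTW itself went with 527 genes, among them 376 of 551 tested genes of chromosome Z, of which birds without a W chromosome carry a further copy. Of those 551 Z genes 93 rose and 46 fell between the days, 33 and 46 on both scales.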

How the data were processed

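Retinal total RNA was sequenced as stranded libraries after ribosomal RNA depletion, per the labels. The submitters' processing notes name STAR, Partek and the GRCg6a build, without roles or versions. The authors deposited 1 table of CPM values, each carrying an added 0.0001, with gene coordinates whose first base (0 or 1) is not stated. Low values moved in near-equal steps, from which reads per library were estimated. In the 14 libraries, 95.0 to 95.8% of the low values lay within 0.1 of a whole multiple of the step. This fell short of nearly all, so no count test was run. The sources used here do not give counting rules or use of strand, and 48 named genes overlap another of mean CPM 1 or more.

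After subtraction of 0.0001, genes with a mean of 1 CPM or more over the 14 libraries (11074, holding 99.47% of summed CPM) were tested with limma 3.58.1 in R 4.3.3 on log2(CPM + 1), two-sided, with presence of HINTW (over 10 CPM) as a covariate and Benjamini-Hochberg adjustment at 0.05. The pseudocount of 1 understates the change of low genes. No pair of libraries had identical values. The fit was also run on simulated data with known changes and independent noise. These held neither a difference between sets of 1-day libraries nor a shift of scale between the days. Figures were drawn with matplotlib 3.10.9. Alternatives were another pseudocount (0.1), no filter or 5 CPM, both rescalings, no or other covariates, all 21 libraries, subsets by code number or HINTW, limma with trend and robust settings, and leaving out each library.

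Named genes were the 12 largest rises and falls on both scales with separate groups and at least median level, and from each of 56 lists the 2 risen and 2 fallen members of lowest adjusted p, plus members added after their values were seen. Results on some genes are not reported here. The members and lists were chosen with earlier results of these data known. Promoter motifs and sequences were not used here, because the reference given holds gene names only.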

Additional observations from a re-analysis of the deposited data

Results flagged for a closer look

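In 24 of 456 combinations of a named gene and a day, the highest or lowest of the 7 libraries lay apart from the rest by Dixon's criterion at 95%. Chance flags about 1 in 20 such groups. Libraries are named by their replicate number within a day.

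Of the photoreceptor genes, OPN1MSW had 128 CPM in 6-day library 7, with the others at 58.9 to 84.9 CPM. GNAT1 stood at 15.9 CPM in 1-day library 3, above 9.36 to 11.5 CPM. PDE6B, which did not pass between the days, had 77.9 CPM in 6-day library 3 against 48.5 to 58.6 CPM. ABCA4 had 270 CPM in 6-day library 6.

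Single 1-day libraries also stood apart for genes of other roles. Library 4 was the highest for SLC24A4 (391 CPM), SDK2 (13.3 CPM), SLC4A3 (13.6 CPM), AXIN1 (4.99 CPM) and BARHL2 (1.76 CPM) and the lowest for CSNK1D (50.8 CPM). GPI had 322 CPM in library 3, TPH1 14 CPM in library 5, DNAJB11 10.1 CPM in library 1, and PSMD1 its lowest value, 28.7 CPM, in library 6.

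After 6 days, library 7 was the highest for ADCYAP1 (3.78 CPM, others 0.760 to 1.79 CPM), CHAT (7.56 CPM) and AXIN1 (6.88 CPM). Library 4 was the highest for IRS2 (40.0 CPM), PFKFB3 (102 CPM) and PRMT8 (17.3 CPM) and the lowest for PTS (4.03 CPM) and SPARCL1 (28.0 CPM). CALR had 85.3 CPM in library 3, and NALCN 45.9 CPM in library 2.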

How the results depend on the processing

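Between 6 days and 1 day 3021 genes changed, 2455 higher and 566 lower. After median-of-ratios scaling 1065 were higher and 1155 lower, and with the listed genes rescaled to equal sums 1214 and 1037, so that 48% of calls after the first rescaling were rises, beside 81.3% on CPM. Against the day 1 codes 1 to 4 alone 971 were lower, and against 12 to 14 alone 1694 changed, 1539 higher and 155 lower. With both choices together, chosen after seeing the data, 1561 were higher and 1405 lower against codes 1 to 4, and 823 changed, 435 of them higher, against 12 to 14. In the libraries with HINTW 1567 changed (1236 higher, 331 lower), and in the 5 without 1 changed (1 higher, 0 lower; 1749 at an unadjusted p under 0.05). Leaving out each library in turn gave 2275 to 3116 changed, 1808 to 2431 higher and 409 to 693 lower, and 0 to 1 for the interaction with HINTW, the 1 coming without 1-day library 2. Of 204 named genes called, 188 held on both scales, 125 against each set of 1-day libraries, and 26 ended without some single library. Among the named genes called the sign reversed against codes 12 to 14 for HSP90AA1 (-0.068, and -0.20 with rescaling) and HSPA8 (-0.063 and -0.20), with both choices for NEUROD6 (-0.032) and RRH (-0.035), and without the HINTW covariate for SPIN1W (0.41). Named genes that were not called changed sign in further cases, among them ARR3 and BHLHE40 against codes 12 to 14 (0.17 and 0.093). The causes were not tested. No paired analysis was possible because the code numbers of one day do not recur in the other.

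All eyes wore lenses, so age, duration and any difference in hour or handling cannot be told apart. The 1-day libraries with codes 12 to 14 are 3 in number, and the part of that number in calls lost against them was not tested. Depth was estimated only, counting error is not separated from other spread, and low genes near 1 CPM rest on few reads.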

Other observations

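Transcripts listed as non-coding had a different balance from protein-coding genes. Of 633 tested, 77 were higher after 6 days (12.2%) and 107 lower (16.9%). All 107 were lower on both scales, as were all 566 falls over all genes, and of the 77 rises 44 held on both. Of 10414 protein-coding genes 2370 were higher (22.8%) and 457 lower (4.39%). The median of the mean levels was 2.66 CPM in the former and 10.8 CPM in the latter, and the part of this difference in level was not tested. Against the day 1 codes 12 to 14 alone 48 of the 633 non-coding transcripts were higher and 34 lower, beside 13.9% and 1.4% of all genes.

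Some genes outside the lists changed by large amounts and were chosen after their values were seen. KLHL34, a kelch-family gene that overlaps CNKSR2 on the other strand, went from 0.142, 0.469 and 1.61 CPM to 1.62, 4.14 and 5.92 CPM (1.53 ± 0.21, adjusted p = 0.000214). CA7, a carbonic anhydrase of neurons, went from 0.967, 1.44 and 2.76 CPM to 2.4, 3.92 and 5.76 CPM (0.99 ± 0.15, 0.000578). ELOVL2, which elongates fatty acids towards the docosahexaenoic acid of photoreceptor discs, went from 50.5, 58.7 and 72.6 CPM to 89.5, 98.5 and 101 CPM (0.70 ± 0.08, 7.43e-05). PPEF2, a photoreceptor phosphatase that overlaps NUP54 on the other strand, had a change of 0.67 ± 0.08 (0.000102). ANGPTL7, a secreted protein known from the cornea and trabecular meshwork, went from 1.56 to 11.5 CPM to 0.446 to 1.28 CPM (-1.42 ± 0.28, 0.0026), and overlaps MTOR on the other strand. The gene listed as NR1D1_1 on chromosome 28 went from 3.45, 5.64 and 6.88 CPM to 10.2, 14.2 and 23.6 CPM (1.30 ± 0.17, 0.000168). COX17, a copper chaperone of mitochondria, had a change of 0.85 ± 0.20 (0.00645).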
